A study of Mus musculus with 18 samples.

Results

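The 8 genes described here encode secreted chemokines. They are Cxcl13, Cxcl14, Cxcl1, Cxcl2 and Ppbp of the CXC family and Ccl6, Ccl8 and Ccl12 of the CC family. They were chosen by symbol because the authors' lists of genes that differ between genotypes hold them, so the fold changes and p-values that put them there are given as a description. They are 8 of 816 gene symbols in the lists and take 14 of 1023 rows. The study compared bone marrow-derived macrophages from Eed fl/fl mice heterozygous for LysM-Cre (EED KO), in which loxP sites flank Eed, with macrophages from littermate controls (WT), each unstimulated, LPS primed or LPS tolerant, with 3 RNA-seq libraries in each of 6 groups. The EED protein belongs to Polycomb repressive complex 2, which places the silencing methyl mark on lysine 27 of histone H3, and LysM-Cre is Cre recombinase expressed from the Lyz2 gene of myeloid cells. Marrow was cultured for 7 to 10 days in medium with L929-conditioned supplement. Primed cells received Salmonella lipopolysaccharide (LPS, a bacterial cell wall component) for 24 h at 100 ng/ml. Tolerant cells had this first dose, a rest of 48 h in fresh medium and a second dose of 10 ng/ml, whose duration the sources used here do not give. The genotype of the controls beyond littermate, the age and sex of the mice and whether libraries came from separate mice are likewise not given there, so a p-value measures the spread between these libraries, which may be technical.

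Chemokines are small secreted proteins that guide migrating leukocytes through G protein-coupled receptors. Homeostatic ligands such as Cxcl13 and Cxcl14 position cells in resting tissue, while inflammatory ligands such as Cxcl1, Cxcl2 and Ccl12 are classical products of macrophages exposed to LPS. Tolerant macrophages are known for a muted release of many inflammatory mediators on a repeated LPS dose. These roles are background: the lists compare genotypes within a state, and no value here says how a ligand answers LPS in WT cells.

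The values that follow are log fold changes of EED KO against WT from the authors' deposited table. The file headers name no base for the logarithm, which was read as 2, the scale edgeR uses, and no direction, which was read from Eed. The authors' deposited table gives Eed -3.04 in unstimulated, -3.59 in primed and -3.87 in tolerant cells, with adjusted p of 1.44e-25, 1.46e-32 and 9.42e-24, and 11 other PRC2 genes were not listed. Values per library were not used here, so levels, depth and overlap of the groups cannot be given, and the macrophage identity of the cells could not be checked against marker levels. The standard errors printed are approximate ones, computed as the absolute log2 fold change over the normal quantile of its unadjusted p. Adjusted p-values in the lists reached 413233 times the unadjusted p for Eed in unstimulated cells, more than the 55450 genes of the GENCODE vM21 annotation, so 1 row need not cover a whole gene. A gene is missing from a list where its change was smaller than the selection (absolute log2 fold changes start at 0.75), where its unadjusted p was larger (the largest listed are 0.0497, 0.0497 and 0.0498 in the 3 states), or where it was not tested, and these cases cannot be told apart.

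In the LPS primed and LPS tolerant lists most of the listed ligands were on the higher side in EED KO macrophages. So were most of all listed rows, 79.8% in primed and 82.1% in tolerant cells. The unstimulated lists held 2 of the 8, 1 on each side, and 0 had an adjusted p under 0.05, beside 19.4% of all 227 listed rows. The LPS primed lists held 6 of the 8, with 4 on the higher side, and 2 rose, beside 33.2% of 377 listed rows. The LPS tolerant lists also held 6, with 5 on the higher side, and 4 rose, beside 23.6% of 419 listed rows. No ligand fell past the threshold in any state. Every listed row has an unadjusted p under 0.05, so 2, 6 and 6 ligands pass without adjustment in the authors' comparison, for which edgeR is named. The shares of listed rows that rose were 16.7%, 27.6% and 21.2% and those that fell 2.64%, 5.57% and 2.39%, in the same order. Because the ligands were chosen from these lists, nothing is read from these counts.

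The median log2 fold change of the listed ligands, computed from the authors' deposited table, was -0.18 in unstimulated, 1.19 in primed and 1.65 in tolerant cells, beside 0.98, 0.96 and 0.86 over all listed rows. The unstimulated median rests on 2 ligands of opposite sign. The listed ligands differ between states, so no trend is read from these medians. Over all listed rows 76.7%, 79.8% and 82.1% were on the higher side. Among the 8 ligands, 5 were listed in more than 1 state, and all 5 had the same direction in each. The other 3, Cxcl2, Ppbp and Ccl6, were each listed in 1 state. Across the 3 states, 4 ligands rose in at least 1, Cxcl13, Cxcl14, Ppbp and Ccl8, and the other 4 passed in none. The share of all 816 listed symbols that passed in any state was not computed, so nothing is read from this count.

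**Figure D1:**
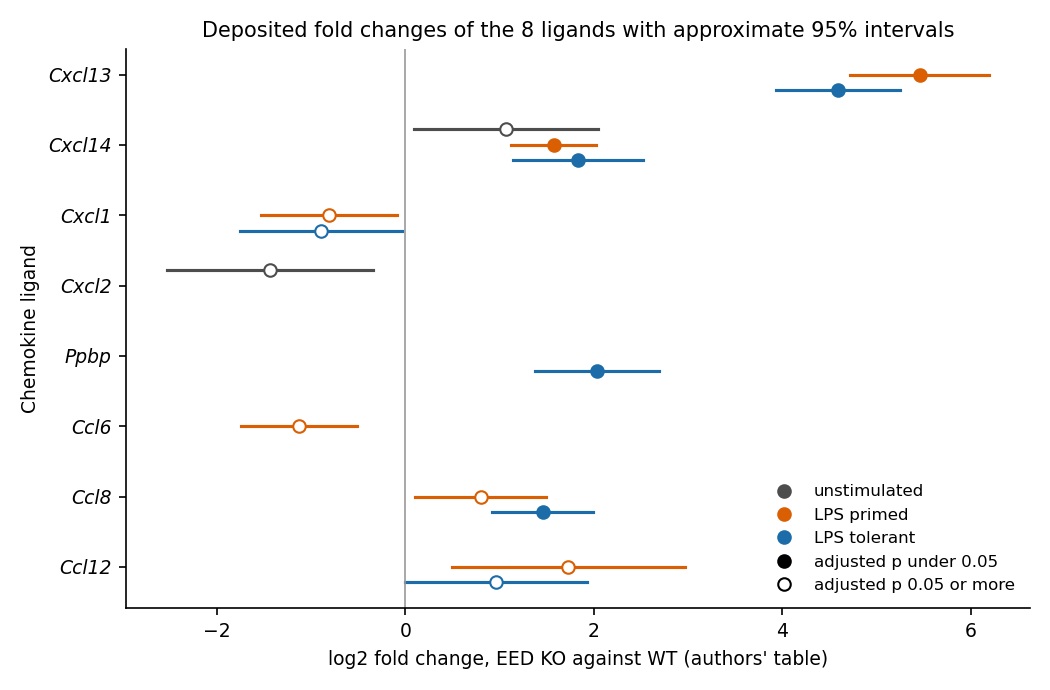
Each point is the log2 fold change of EED KO against WT from the authors' deposited table (x axis) for 1 ligand (y axis) in unstimulated (grey), LPS primed (orange) or LPS tolerant (blue) cells. Bars are approximate 95% intervals implied by the unadjusted p, which leave out 0 by the way the lists were made. Filled points have an adjusted p under 0.05, and a missing point means that the gene is not listed. Cxcl13 lies at 5.46 and 4.59, apart from every other ligand, and Cxcl1, Cxcl2 and Ccl6 lie below 0.

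The bases upstream of 6 of the ligands are shown, those of the homeostatic pair, of Cxcl1 and Cxcl2 and of the adjacent Ccl12 and Ccl8. Those of Ppbp and Ccl6 are not printed. The marked motifs differ among the ligands but do not follow these pairs throughout, since Cxcl13 and Cxcl14 share none. Each line gives the 250 bases before the gene start, 5' to 3', from RefSeq on GRCm38.p6, an older build than the GRCm39 named in the submitters' processing notes. Capitals mark 3 motifs searched on both strands: TATAAA (the TATA box core), GGGNNNTTCC (a form of the kB site bound by NF-kB, the main transcription factor of the LPS response) and GAAANNGAAA (the core of the interferon-stimulated response element).
Cxcl13, chr5:95956689-95956938 (+ strand): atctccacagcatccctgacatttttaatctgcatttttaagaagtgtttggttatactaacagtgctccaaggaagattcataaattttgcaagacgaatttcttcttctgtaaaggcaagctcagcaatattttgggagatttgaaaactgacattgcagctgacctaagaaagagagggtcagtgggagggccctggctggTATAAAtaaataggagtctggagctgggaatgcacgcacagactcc
Cxcl14, chr13:56296552-56296801 (- strand): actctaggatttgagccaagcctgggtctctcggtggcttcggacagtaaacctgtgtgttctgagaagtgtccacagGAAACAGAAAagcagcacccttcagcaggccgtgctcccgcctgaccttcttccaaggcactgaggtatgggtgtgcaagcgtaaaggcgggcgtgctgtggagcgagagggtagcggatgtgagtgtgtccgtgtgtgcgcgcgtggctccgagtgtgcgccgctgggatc
Cxcl1, chr5:90890995-90891244 (+ strand): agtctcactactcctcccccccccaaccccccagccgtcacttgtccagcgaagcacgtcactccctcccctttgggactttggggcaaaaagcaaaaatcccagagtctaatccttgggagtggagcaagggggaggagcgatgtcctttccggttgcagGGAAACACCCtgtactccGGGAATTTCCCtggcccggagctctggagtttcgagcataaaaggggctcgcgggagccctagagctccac
Cxcl2, chr5:90903649-90903898 (+ strand): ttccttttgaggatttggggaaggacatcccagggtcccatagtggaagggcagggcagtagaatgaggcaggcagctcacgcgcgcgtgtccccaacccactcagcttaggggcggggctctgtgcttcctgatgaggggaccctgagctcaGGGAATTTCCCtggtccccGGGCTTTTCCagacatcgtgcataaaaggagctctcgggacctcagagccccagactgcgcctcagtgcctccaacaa
Ccl12, chr11:82101595-82101844 (+ strand): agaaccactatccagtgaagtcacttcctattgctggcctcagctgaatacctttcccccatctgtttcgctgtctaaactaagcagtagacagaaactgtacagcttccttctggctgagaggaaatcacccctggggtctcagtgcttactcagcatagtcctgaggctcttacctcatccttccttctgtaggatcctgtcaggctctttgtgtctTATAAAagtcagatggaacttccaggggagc
Ccl8, chr11:82114935-82115184 (+ strand): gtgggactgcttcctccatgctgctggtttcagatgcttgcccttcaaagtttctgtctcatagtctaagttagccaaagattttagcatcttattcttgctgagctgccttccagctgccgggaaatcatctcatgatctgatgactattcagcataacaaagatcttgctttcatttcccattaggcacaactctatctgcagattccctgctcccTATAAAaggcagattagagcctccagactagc

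Upstream of Cxcl1 and Cxcl2 the kB form was found, and it was not found upstream of the other 6 ligands. Cxcl1 had the stretches GGAAACACCC, beginning 89 bases before the start, and GGGAATTTCCC, beginning 71 bases before it. The same 11 bases, GGGAATTTCCC, stood 97 bases before the start of Cxcl2, followed at 78 bases by GGGCTTTTCC. An 11-base stretch holds a match on each strand, and those matches overlap. The kB form occurred in 4.65% of all 32851 RefSeq start windows of this length. A looser form, GGGNNNNNCC, which covers every match of the stricter form, occurred in 45.8% of windows and upstream of 3 ligands, Cxcl13, Cxcl1 and Cxcl2.

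TATAAA was found upstream of 4 ligands, Cxcl13, Ppbp, Ccl8 and Ccl12, and in 12.4% of all windows. It began 46 bases before the start of Cxcl13, 32 before that of Ccl8, 31 before that of Ccl12, and 30 and 8 before that of Ppbp. Upstream of Cxcl14 the interferon element core was found, which 2.98% of windows held. A match of letters is a description and does not show binding.

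CpG content separated Cxcl14 from the other ligands in this window. The observed count of CpG dinucleotides was 0.75 of that expected from base composition upstream of Cxcl14, with 16 CpG, higher than in 76.7% of all windows. Cxcl1 and Cxcl2 were near the middle of all windows, at 0.46 and 0.40. The 5 others were low: Cxcl13 had a ratio of 0.18 and 2 CpG, Ccl6 of 0.20, Ppbp of 0.14, Ccl8 of 0.082 and Ccl12 of 0.070. The median over all windows was 0.37.

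**Figure D2:**
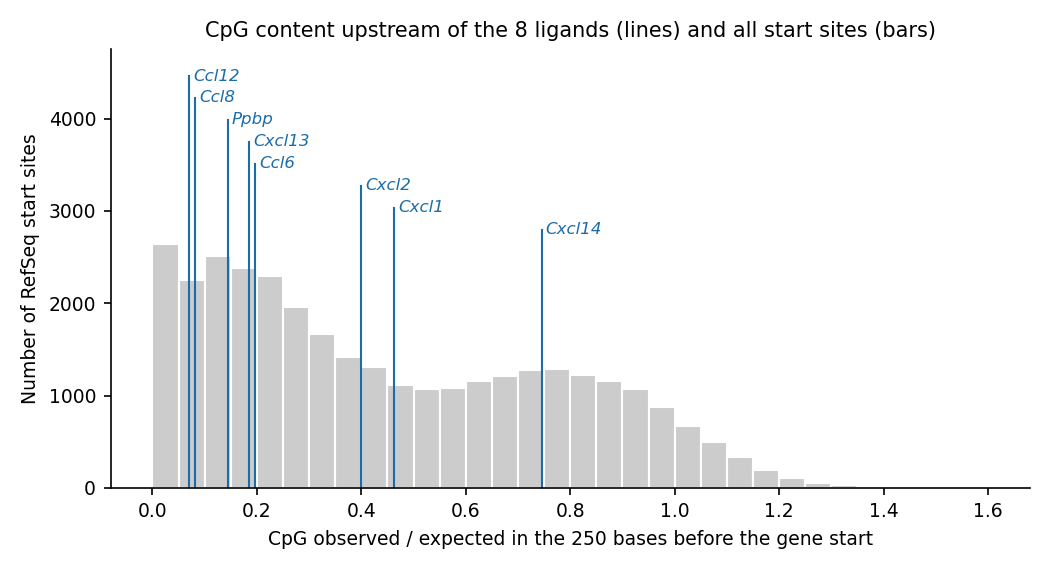
The x axis gives the ratio of observed to expected CpG dinucleotides in the 250 bases before a gene start, and the bars count 32851 RefSeq start windows on GRCm38.p6. Each line marks 1 of the 8 ligands, and its height carries no value. Cxcl14, at 0.75, lies in the upper hump of the distribution, Cxcl1 and Cxcl2 lie between the humps at 0.46 and 0.40, and the 5 others lie at 0.20 or lower.

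Cxcl13, the B cell attractant that acts through the receptor Cxcr5 and organises lymphoid follicles, had the largest change of the set. Its value for LPS primed cells according to the authors' deposited table is 5.46, or 43.9-fold (approximate SE 0.37, adjusted p = 1.5e-42). It was first by size and by p of the 301 rows higher in primed cells. For LPS tolerant cells the value in the authors' deposited table is 4.59, or 24.1-fold (approximate SE 0.34, adjusted p = 4.19e-37). There it was first by p, with a rank of 3 by size, among 344 higher rows. The tolerant value was lower than the primed one by 0.86 on the log2 scale, with an approximate 95% interval of the difference from -1.85 to 0.12 that assumes independent libraries and, like all intervals here unless said otherwise, uses the normal quantile. Cxcl13 is in neither unstimulated list, and whether its fold change there differs from the others was not tested.

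Cxcl14, a homeostatic chemokine of epithelia and other resting tissues, was the only ligand listed in all 3 states. The authors' deposited table gives it 1.07 in unstimulated cells, which is 2.10-fold (approximate SE 0.50, adjusted p = 1). It rose by 1.57 in primed cells (2.98-fold, approximate SE 0.23, adjusted p = 1.11e-08) and by 1.84 in tolerant cells (3.57-fold, approximate SE 0.35, adjusted p = 0.000177) according to the authors' deposited table. The point values go up from unstimulated to tolerant cells. Between unstimulated and primed cells the difference was 0.51 (approximate 95% interval -0.57 to 1.58), between primed and tolerant cells 0.26 (-0.56 to 1.09) and between unstimulated and tolerant cells 0.77 (-0.43 to 1.96). With the standard error from a t quantile with 4 degrees of freedom the last of these intervals runs from 0.12 to 1.42. That between primed and tolerant cells then runs from 0.21 to 0.31. Both still multiply that error by the normal quantile, so they are narrower than t intervals. Nothing is read from their leaving out 0.

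**Figure D3:**
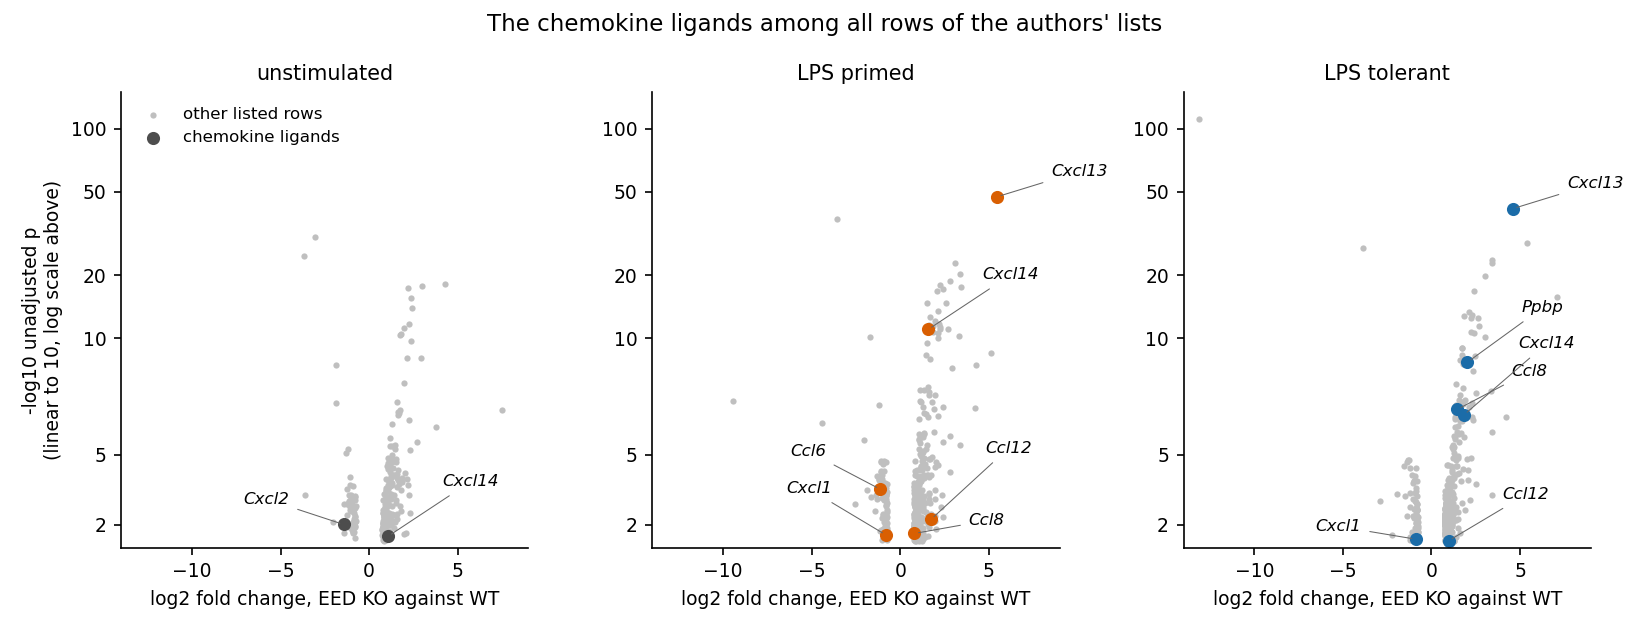
Grey points are all rows of the authors' lists in each state, and coloured points are the chemokine ligands. The x axis is the log2 fold change of EED KO against WT and the y axis is -log10 of the unadjusted p, linear up to 10 and logarithmic above. Cxcl13 stands at the top right in primed and tolerant cells, while Cxcl1, Ccl8 in primed cells and Ccl12 in tolerant cells lie near the lower edge set by the selection.

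Cxcl1 and Cxcl2 attract neutrophils through the receptor Cxcr2, and both were on the lower side without passing the adjusted threshold. The authors' deposited table gives Cxcl1 -0.81 in primed cells (1.75-fold lower, approximate SE 0.37, adjusted p = 0.972) and -0.89 in tolerant cells (1.85-fold lower, approximate SE 0.44, adjusted p = 1). The tolerant minus primed difference was -0.080 (approximate 95% interval -1.20 to 1.04). For Cxcl2 the only value in the authors' deposited table is -1.43 in unstimulated cells (2.70-fold lower, approximate SE 0.56, adjusted p = 1). The kB stretches printed above belong to these genes, and a link between motif and fold change was not tested.

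Ppbp, the precursor of the platelet chemokine that also acts on Cxcr2, had the opposite sign to Cxcl1 in tolerant cells. Cxcl1 did not pass there, and Cxcl2 was listed only in unstimulated cells. Ppbp rose by 2.03 in tolerant cells (4.09-fold, approximate SE 0.33, adjusted p = 1.76e-06) according to the authors' deposited table, and was listed in no other state. Of 11 other megakaryocyte and platelet genes, Pf4 and Itga2b among them, 0 were listed in tolerant cells. Listed in some state were 3.41% of all protein-coding genes, and no more than that in tolerant cells alone. The count of 0 is therefore at the background and says nothing of such cells. In primed cells, where Ppbp was not listed, Gp6, a platelet collagen receptor, rose by 1.79 in the authors' deposited table (adjusted p = 0.00615). The part of such cells in the Ppbp value was not tested.

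Ccl8 and Ccl12 belong to the monocyte chemoattractant group. Ccl12 acts on monocytes through Ccr2, and mouse Ccl8 is a ligand of Ccr8. Ccl8 stood at 0.80 in primed cells (1.74-fold, approximate SE 0.36, adjusted p = 0.916) and rose by 1.46 in tolerant cells (2.75-fold, approximate SE 0.27, adjusted p = 0.000108) according to the authors' deposited table. Tolerant minus primed was 0.66 for Ccl8 (approximate 95% interval -0.22 to 1.54). With the standard error from the t quantile, still multiplied by the normal quantile, the interval ran from 0.21 to 1.10, narrower than a t interval. A difference between the states was not tested. Ccl12 had values of 1.73 in primed cells (3.32-fold, approximate SE 0.63, adjusted p = 0.47) and 0.96 in tolerant cells (1.95-fold, approximate SE 0.49, adjusted p = 1) according to the authors' deposited table. For Ccl12 the difference was -0.77 (approximate 95% interval -2.33 to 0.80). With an unadjusted p of 0.0497 in tolerant cells Ccl12 is the ligand just inside the selection on p, and with 0.80 in primed cells Ccl8 is the one just inside the selection on size.

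Ccl6, a chemokine of the C10 group that mouse macrophages make without stimulation and that acts on Ccr1, was on the lower side in primed cells. The authors' deposited table gives it -1.13 (2.18-fold lower, approximate SE 0.31, adjusted p = 0.0828), the smallest adjusted p among ligands that missed the threshold. Its relative Ccl9 stood at -0.86 in tolerant cells (adjusted p = 0.111) according to the authors' deposited table, and Ccr1 stood at -0.86 (adjusted p = 0.556) there.

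Among 39 chemokine ligand genes in a list drawn up with earlier results known, the 8 ligands above, Ccl9 and Cx3cl1 were listed in some state and 29 in none. Over the genome, 3.41% of 21896 protein-coding RefSeq genes were listed in some state, so a short group with no listed member is at that background. Cx3cl1, the membrane-bound ligand fractalkine, stood at 1.15 in tolerant cells (adjusted p = 0.348) according to the authors' deposited table. By group, 3 of 15 homeostatic ligands were listed in some state, each on the higher side, and 2 rose. Of 5 CXC ligands with the ELR motif that marks neutrophil attractants, 3 were listed and 1 rose. In the monocyte chemoattractant group 2 of 5 were listed, and Ccl2, Ccl7 and Ccl11 were not. None of the 3 interferon-inducible ligands Cxcl9, Cxcl10 and Cxcl11 was listed, nor were the 9 other inflammatory ligands, Ccl3, Ccl4 and Ccl5 among them. These counts describe lists from which the 8 ligands were chosen, and an unlisted gene is not shown to be unchanged.

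Of 24 chemokine receptors, 2 were listed in some state, Cx3cr1 and Ccr1, beside the same 3.41% of all protein-coding genes. Of the receptors named above for the ligands, Cxcr5, Cxcr2, Ccr2 and Ccr8 were not listed. Ccr1, on which Ccl6 acts, was on the lower side in tolerant cells without passing. Cx3cr1, the fractalkine receptor, rose by 2.24 in primed cells (adjusted p = 7.03e-09) and by 1.87 in tolerant cells (adjusted p = 4.15e-10) according to the authors' deposited table. Of 26 genes of the Toll-like receptor and NF-kB pathway, 0 were listed in any state, a count at that background. Lymphotoxin signalling drives Cxcl13 in lymphoid stroma. Of 14 genes of the lymphotoxin and non-canonical NF-kB pathways, 1 was listed, the B cell survival factor Tnfsf13b. It stood at 0.82 in primed cells (adjusted p = 0.373) according to the authors' deposited table. Of 17 LPS-induced cytokines and mediators, 1 was listed, Ptgs2 at -1.13 in unstimulated cells (adjusted p = 1) according to the authors' deposited table.

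Cxcl13 is also made by stromal and follicular dendritic cells and by some tissue macrophages, and 2 of 9 stromal genes stood beside it in the lists. The background for this and for counts over all states is the 3.41% of all protein-coding genes listed in some state. The share for each state alone was not computed. These marker lists were chosen with earlier results known, so no enrichment is read from the counts. In the authors' deposited table Dcn rose by 1.71 in primed cells (adjusted p = 0.0287) and stood at 1.35 in tolerant cells (adjusted p = 0.668). Pdpn was on the lower side, at -1.01 and -1.12 (adjusted p of 1 in each) according to the authors' deposited table. The other 7 stromal genes, with Col1a1, Pdgfra and the follicular dendritic cell marker Cr2 among them, were not listed. Of 12 tissue-resident macrophage genes, 5 were listed in some state. In primed cells 1 was listed, Marco, which rose by 1.29 according to the authors' deposited table (adjusted p = 6.22e-05). In unstimulated cells 2 of the 12 were listed, Mrc1 at 1.24 and C1qa at 1.19 according to the authors' deposited table (adjusted p of 1 in each). In tolerant cells 3 of the 12 were on the higher side and 1 on the lower, and 0 passed. Among 8 general macrophage genes 2 were listed: Mertk stood at 0.79 in primed cells (adjusted p = 0.374), and Lyz2, which carries the Cre insertion, fell in all 3 states, with -1.17, -1.19 and -0.93 in unstimulated, primed and tolerant cells according to the authors' deposited table (adjusted p of 0.0128, 5.36e-05 and 0.0362). Of 11 neutrophil genes, Mmp8 alone was listed and rose by 1.30 in tolerant cells in the authors' deposited table (adjusted p = 0.00117). In the dendritic cell list of 9, Fscn1 alone was listed and rose by 2.58 in primed and 1.30 in tolerant cells (adjusted p of 8.49e-12 and 0.00149) according to the authors' deposited table. Of 8 B cell genes, Ighm alone was listed, at 1.63 in unstimulated cells (adjusted p = 0.132) according to the authors' deposited table. The part of any such cells in the chemokine values was not tested, and in bulk RNA fewer cells of a type and less RNA per cell cannot be told apart.

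Chemokine genes lie in clusters. In the RefSeq gene order, Cxcl5, Ppbp, Pf4, Cxcl3, Cxcl15, Cxcl1 and Cxcl2 follow each other on chromosome 5. In tolerant cells Ppbp was on the higher side and Cxcl1 on the lower, with the 3 genes between them unlisted. Ereg, a growth factor of the epidermal growth factor family that lies 3 genes beyond Cxcl2, rose by 3.00 in tolerant cells in the authors' deposited table (adjusted p = 1.46e-07). Ccl12 and Ccl8 are adjacent on chromosome 11, both on the higher side in both LPS states, while their neighbours Ccl2, Ccl7, Ccl11 and Ccl1 were unlisted. Ccl9 and Ccl6, also adjacent on chromosome 11, were both on the lower side, in different states. Of the 10 protein-coding genes nearest to Cxcl13, 5 on each side, 0 were listed, which at 3.41% of genes listed over the genome is no trait of this locus.

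**Figure D4:**
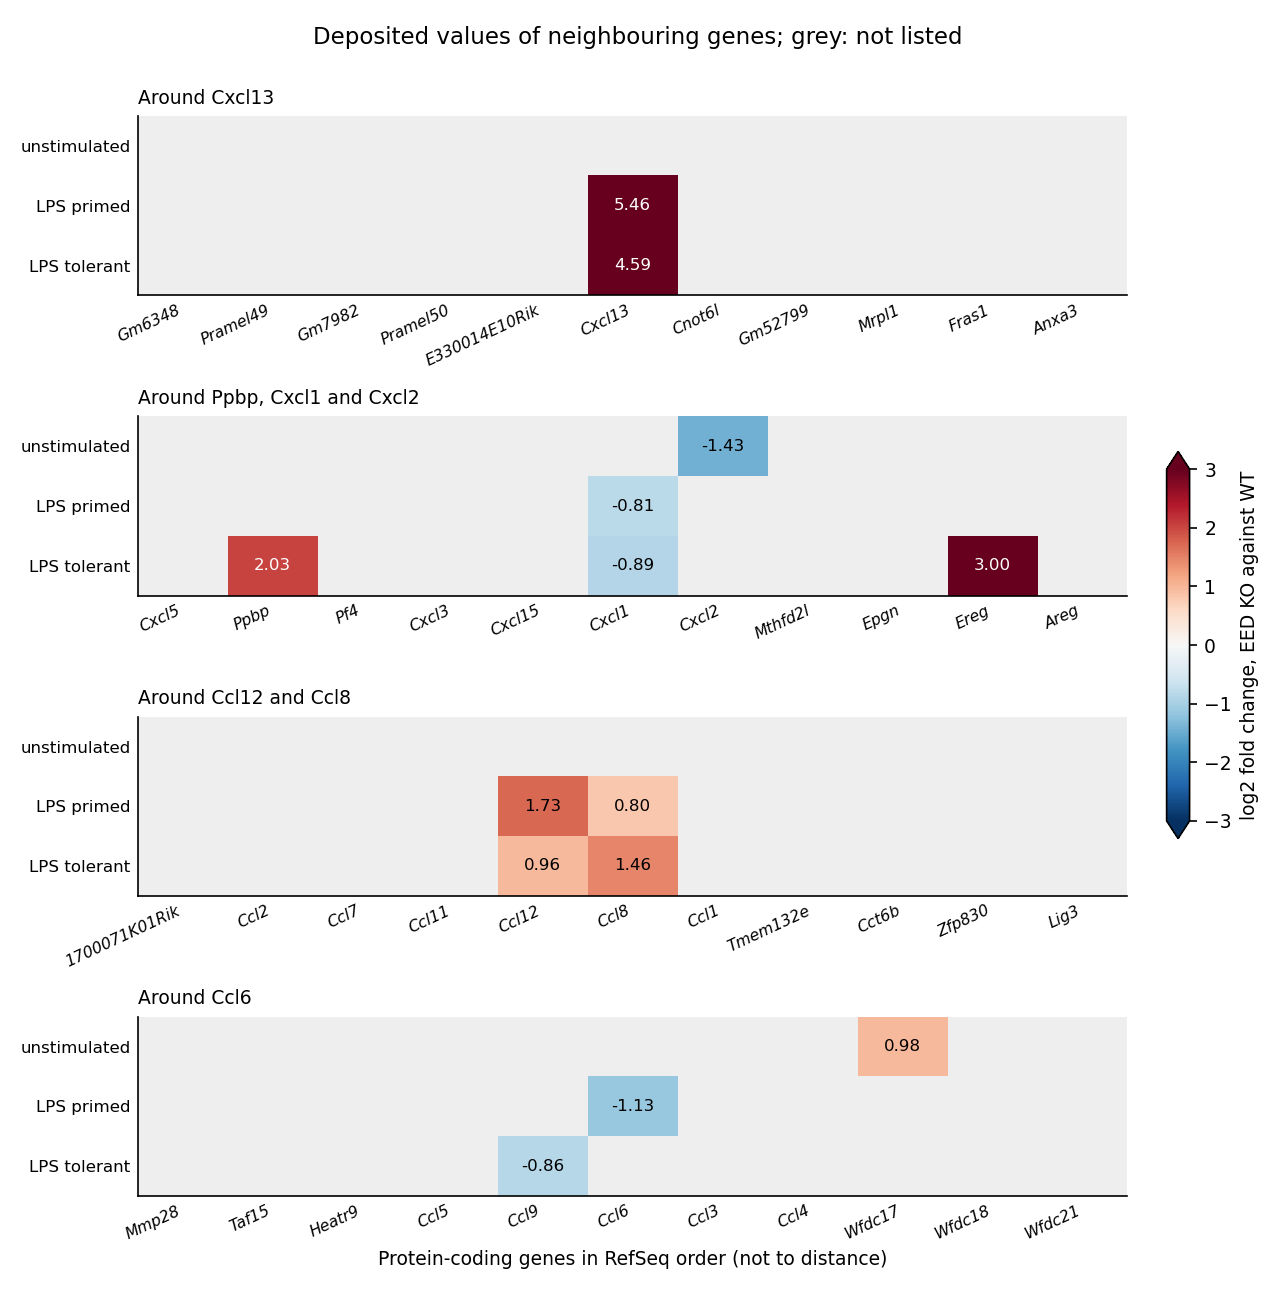
Columns are protein-coding genes in RefSeq order, not drawn to distance, and rows are the 3 states. Colour and number give the log2 fold change of EED KO against WT from the authors' deposited table, with the colour scale ending at 3 in either direction, and grey means not listed. Cxcl13 has no listed neighbour among the 10 drawn, Ppbp and Cxcl1 differ in sign, and Ccl12 and Ccl8 have positive values in both LPS states.

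The genes nearest to Cxcl13 in fold change had smaller changes in both LPS states. Cxcl13 had the largest value of the higher list in primed cells, so a smaller change there was fixed in advance. Among 72 genes listed in primed and tolerant but not in unstimulated cells, itself included, the nearest by Euclidean distance over the 2 log2 fold changes was Mmp9, the gelatinase, at a distance of 2.35, with values of 3.43 and 3.41 in the authors' deposited table. Farther off were Peg10, an imprinted gene, at 3.14, the kinase gene Mast4 at 3.23 and the metalloprotease gene Adam19 at 4.18. Cxcl14 had closer company among the 39 genes listed in all 3 states. Fcrls, an Fc receptor-like gene of macrophages and microglia, was nearest at a distance of 0.43, with 1.10, 1.94 and 1.61 in unstimulated, primed and tolerant cells in the authors' deposited table. Dmwd at 0.65, the GTPase gene Rragd at 0.70, Kctd17 at 0.72 and the RNA-binding protein gene Igf2bp3 at 0.77 followed. These distances describe 2 or 3 states and say nothing of shared control.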

How the data were processed

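RNA-seq was done on 18 libraries of mouse bone marrow-derived macrophages, with stranded mRNA libraries and paired reads of 150 bp, per the labels' protocols. GRCm39, R 4.0.3, HISAT2 and edgeR are named in the submitters' processing notes, with no account of how they were combined. Per state, the authors deposited 1 list of higher and 1 of lower genes. Per the file headers, a deposited row has a log fold change (read as log2) and an unadjusted and an adjusted p-value. Whether WT LPS primed replicate 1, whose labels name no comparison, entered the primed lists is not known.

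No model was fitted. Rows were selected by symbol, and rose or fell is used for an adjusted p under 0.05. Members, gene lists, motifs and the approximate standard errors were chosen with earlier results of these data known. All 8 members were named, with up to 5 listed genes from each fixed list and the 5 genes nearest to Cxcl13 and to Cxcl14, of which 1 is not reported here; the neighbouring gene Ereg was named after its values were seen. Upstream sequences matched all 8 members by symbol in the RefSeq table of GRCm38.p6, and gene order came from RefSeq on the same build. Python 3.11.15, pandas 2.3.3 and scipy 1.17.1 were used.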

Additional observations from a re-analysis of the deposited data

How the results depend on the processing

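Counting every deposited row, whose unadjusted p the authors selected, in place of an adjusted p under 0.05 changed the number of ligands counted from 0 to 2 in unstimulated cells and from 2 to 6 in LPS primed cells. In tolerant cells it went from 4 to 6. An adjusted p under 0.01 left the counts at 0, 2 and 4 in unstimulated, primed and tolerant cells. So did an absolute log2 fold change of at least 1 beside the adjusted p. An adjusted p under 0.1 gave 0, 3 and 4. The shares of all listed rows passing at these other settings were not computed, so nothing is read from these counts. The tolerant minus primed differences of Cxcl13 and Cxcl14 are -0.86 and 0.26 by either approximation of the standard error, but their intervals are not the same. With a t quantile of 4 degrees of freedom the standard error went from 0.50 to 1.17e-10 for Cxcl13, a size that no real spread could give, and from 0.42 to 0.025 for Cxcl14. Intervals from it left out 0, where those from the normal quantile held it, for Cxcl13, for Cxcl14 between tolerant cells and either other state, and for Ccl8. Those intervals multiply the error from the t quantile by the normal quantile, so they are narrower than t intervals. Nothing is read from their leaving out 0. The other 3 differences, of Cxcl14 between unstimulated and primed cells, Cxcl1 and Ccl12, held 0 with both. Values per library were not used here, so no library was left out in turn and depth limits are unknown. No paired analysis was possible because the deposited values come per comparison and carry no replicate numbers.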
